A study of Saccharomyces cerevisiae with 2 samples.

Results

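A set of 5 short reading frames of budding yeast lie in or beside the ribosomal DNA. Sequencing reads counted at them are taken here, by strand, as reads of 25S ribosomal RNA (rRNA) or of a sequence resembling it. No sequence was examined. The frames were taken by name from the protein-coding class of CRAC count tables. Of 9 listed names, 5 gave a row in both libraries: YLR154C-G, YLR154W-A, YLR154W-C, YLR162W and RRT15. TAR1 is the standard name of YLR154W-C and adds no row. YLR154W-B, YLR154W-E and YLR154W-F gave no row in either library and were not analysed here. The 5 frames are among 2032 protein-coding features and 2635 named features of all classes seen in either library.

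The series compared RNA crosslinked to Bud22, a nucleolar protein required for assembly of the small ribosomal subunit, with the background of the purification. CRAC, UV crosslinking and analysis of cDNA, purifies a tagged protein under denaturing conditions and sequences the RNA attached to it. The tagged strain carries Bud22-HIS-TEV-proteinA, and the control is the untagged W303 wildtype. Both groups were, per the labels, grown in YPD to an OD600 of 1.0, moved to SDC-URA with 4-thiouracil, a photoreactive uracil analogue, over 4 h, and exposed to UV of 365 nm during 30 min. The control's growth description mentions the tagged strain, against its own genotype, title and source name, and the groups follow the genotype. There was 1 library per group, so the values have no replicate error and no test, and any difference is one between 2 libraries.

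The rRNA of the large subunit, 25S, is cut from the 35S precursor together with 18S, the rRNA of the small subunit, and the short rRNA RDN58. The 35S genes stand in a tandem array on chromosome XII and are transcribed from the Crick strand, the strand marked by a C in systematic names. YLR154C-G carries that C, and a sense read there is a 25S read. The other 4 frames are named for the Watson strand, so a 25S read at them is counted as antisense. TAR1, whose name stands for transcript antisense to ribosomal RNA, encodes a small mitochondrial protein. RRT15 is named as a regulator of rDNA transcription. YLR154C-G, YLR154W-A and YLR162W encode, if anything, proteins without a settled function.

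In the R64 RefSeq gene table, consulted for names and neighbours alone because the files name no genome build, YLR154C-G overlaps RDN25-2 and TAR1 overlaps RDN25-1, the 25S genes of the 2 annotated repeats. YLR154W-A stands in that table only as a synonym of TAR1, but the count tables list it on a row of its own. YLR162W and RRT15 overlap no 35S or 25S gene of the table. They lie side by side between RDN5-6, a copy of the 5S rRNA gene, and MAS1, which encodes a subunit of the mitochondrial processing protease. The description as frames nested in the 25S gene is therefore borne out by the table for YLR154C-G and TAR1, and not for YLR162W and RRT15.

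Sequencing gave 317922 reads for Bud22 and 296925 for the control, of which 188065 and 97270 were mapped. Sense counts over all named features came to 215982 and 132895. These totals exceed the mapped reads, so they are sums of counts and not library sizes. At 25S the tables list 6229 sense reads with Bud22 and 11761 in the control, the same at both repeat copies, as a read counted at every copy it matches would give. The counts called reads here are those headed sense_overlap and anti-sense_overlap. A further column, headed number of reads, holds, as inferred from the values, the number of distinct read entries behind a feature, both strands together. At 25S this was 287 with Bud22 and 3286 in the control, or 21.7 and 3.58 reads per entry. Intervals are exact 95% intervals that cover counting error only. Copies of 1 molecule are not independent, so read-based intervals are too narrow, and values by entries are given beside them.

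The frames held their reads on the 25S strand almost without exception. At YLR154C-G all 3439 reads with Bud22 and all 5019 in the control were sense, and 0 were antisense, which allows a share of up to 0.0872% and 0.0598% by a floor of 3 counts. At YLR154W-A all 651 and 2275 reads were antisense, and the floor allows up to 0.461% and 0.132% on the other strand. TAR1 had 960 antisense reads with Bud22 and 2963 in the control. Sense reads, those that the TAR1 messenger RNA itself would give, numbered 0 with Bud22, which allows up to 0.313%. In the control there were 4 of 2967, or 0.135% (interval 0.0367 to 0.345). RDN25 had the same number of reads on its own opposite strand, 0 of 6229 with Bud22 against 4 of 11765 without the tag. Whether these are the same 4 reads cannot be seen in the tables. YLR162W had 215 and 500 antisense reads and RRT15 had 1 and 48, and neither had a sense read in either library. A messenger RNA of YLR154W-A, TAR1 or YLR162W was thus not detectable with Bud22 at this depth. At YLR162W the floor allows up to 1.40% of reads. The 1 read of RRT15 with Bud22 is too few to set a limit. By entries the limits are wider, since a floor of 3 over the 52 entries of TAR1 with Bud22 allows up to 5.77%. Over the 8 entries of YLR162W it allows up to 37.5%. At YLR154C-G a messenger RNA would lie on the 25S strand and could not be told apart from rRNA.

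YLR154C-G alone took more 25S reads than all the rest of the gene with Bud22, and fewer than the rest in the control. Its 3439 reads made up 55.2% of the RDN25 count in the Bud22 library (interval 54.0 to 56.5), and its 5019 reads made up 42.7% in the control (41.8 to 43.6). Bud22 over control gave a ratio of 1.29 (1.24 to 1.35), short of the 2-fold required for a call. A 2-fold rise from the control share would have needed most 25S reads, or almost all entries, to fall at this frame. A call of higher was therefore hardly possible here. By distinct entries the frame held 160 of 287 with Bud22, or 55.7% (49.8 to 61.6), and 1622 of 3286 in the control, or 49.4% (47.6 to 51.1). The entry ratio was 1.13 (0.954 to 1.33), an interval that includes 1. A large part of the 25S reads thus fell at this frame also in the library without a tagged protein.

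TAR1 took a smaller part of 25S with Bud22 by reads, and a difference was not seen by entries. Its 960 reads equalled 15.4% of the RDN25 count with Bud22 (14.5 to 16.3), and its 2963 reads 25.2% in the control (24.4 to 26.0). The read ratio was 0.612 (0.568 to 0.658). By entries it held 52 of 287, or 18.1% (13.8 to 23.1), and 565 of 3286, or 17.2% (15.9 to 18.5), with a ratio of 1.05 (0.777 to 1.40). In the control TAR1 had 5.24 reads per entry, more than the 3.58 of 25S as a whole, whereas with Bud22 it had 18.5 against 21.7. The lower read share with Bud22 went with this difference in copies per entry, and was not seen once each entry counted once.

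YLR154W-A took a smaller part of 25S with Bud22 in both counts, below 2-fold in each. Its 651 reads equalled 10.5% of the RDN25 count (9.70 to 11.2), against 19.3% for its 2275 reads in the control (18.6 to 20.1), which is a ratio of 0.540 (0.494 to 0.590). By entries the values were 32 of 287, or 11.1% (7.75 to 15.4), and 570 of 3286, or 17.3% (16.1 to 18.7), with a ratio of 0.643 (0.436 to 0.918). It is the frame for which the read interval and the entry interval both lay below 1.

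**Figure D1:**
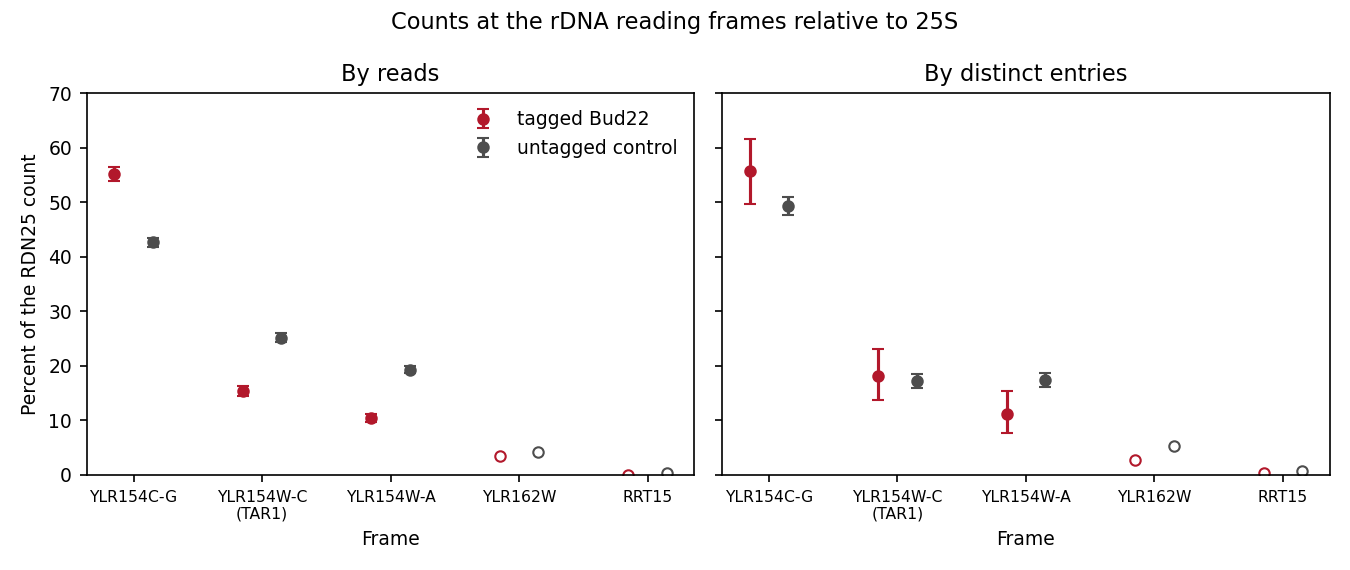
Count at each frame as a percent of the RDN25 count (vertical axis) by reads (left) and by distinct entries (right), with 1 library per group. Filled points have exact 95% intervals, and open points mark YLR162W and RRT15, which lie outside the annotated 25S genes and have no interval here. YLR154C-G has the highest percent in both libraries, not scaled by length, at 55.2% and 42.7% by reads and 55.7% and 49.4% by entries.

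Counts at these 3 frames, added together, set an upper limit on the part of 25S they cover. Their reads summed to 5050, or 81.1% of the 6229 at 25S, with Bud22, and to 10257, or 87.2% of 11761, in the control. A read can overlap 2 frames, so at least 1179 reads with Bud22 (18.9%) and at least 1504 in the control (12.8%) fell outside all 3. By entries the sums were 244 of 287 and 2757 of 3286, which leaves at least 15.0% (11.1 to 19.6) and 16.1% (14.9 to 17.4). How many reads the frames share is not shown by the tables, and the limits take YLR154W-A to lie within 25S, as its place in the list states.

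The other 2 frames, outside the annotated 35S genes, had few reads. YLR162W, overexpression of which is known to confer resistance to an antimicrobial peptide, had 215 antisense reads with Bud22 and 500 in the control, equal to 3.45% and 4.25% of the RDN25 count. The ratio was 0.812 (0.689 to 0.955) by reads. It rested on 8 entries against 177, with an entry ratio of 0.518 (0.220 to 1.04). RRT15 had 1 antisense read with Bud22 and 48 in the control, the latter on 24 entries. Its read ratio relative to 25S was 0.0393 (0.000976 to 0.230), which was called lower. By entries, 1 against 24 gave 0.477 (0.0116 to 2.93), so a lower share was not detectable. The tables do not show whether reads at these 2 frames are also counted at RDN25, so their values are quotients and not shares of it.

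Ratios between frames of the same library need no common total. YLR154C-G had 3.58 reads for each TAR1 read with Bud22 and 1.69 in the control, an odds ratio of 2.11 (1.94 to 2.30), but 3.08 and 2.87 entries per TAR1 entry, an odds ratio of 1.07 (0.767 to 1.52). Against YLR154W-A it had 5.28 and 2.21 reads, an odds ratio of 2.39 (2.17 to 2.64). By entries this was 5.0 and 2.85, an odds ratio of 1.76 (1.18 to 2.69). By reads, YLR154W-A over TAR1 was 0.678 with Bud22 against 0.768 in the control, an odds ratio of 0.883 (0.787 to 0.991), and by entries 0.615 and 1.01, an odds ratio of 0.610 (0.374 to 0.982). Of the 10 pairs among the 5 frames, 10 had an interval excluding 1 by reads and 3 by entries. The 3 were YLR154C-G over YLR154W-A, YLR154C-G over YLR162W and YLR154W-A over TAR1. The intervals were not adjusted for the number of pairs, and frames in 25S share its reads.

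Relative to all named features, the frames were lower with Bud22, as 25S itself was. By reads YLR154C-G took 1.59% of the named-feature total with Bud22 and 3.78% in the control, a ratio of 0.422 (0.404 to 0.440). TAR1 had a ratio of 0.199 (0.185 to 0.215), YLR154W-A 0.176 (0.161 to 0.192), YLR162W 0.265 (0.224 to 0.311) and RRT15 0.0128 (0.000318 to 0.0749). RDN25 stood at 0.326 (0.316 to 0.336). All 5 frames met the rule for lower, that is at least 10 counts over both libraries, at least 2-fold and an interval excluding 1. Over the same total, 49.4% of 494 named features were lower by sense reads and 23.7% higher. Of the 494, 159 had no sense read with Bud22, passed the minimum through the control alone and could only be called lower. By antisense reads 70.7% of 99 protein-coding features were lower and 21.2% higher. Of the 99, 66 had no antisense read with Bud22 and likewise could only be called lower. The frames named for the Watson strand are themselves among those called lower. The antisense share therefore does not show whether the frames were low for such features. The median log2 ratio was -2.33 over the frames, -0.93 over the 494 features and -5.46 over the 99, the other two with a pseudocount of 0.5.

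By entries over the same total, 2 of 5 frames were called lower, against 12.1% of 373 named features (17.4% were higher). Of the 373, 96 had no entry with Bud22, so they passed the minimum through the control alone and could not be called higher. The 2 frames called lower were YLR154W-A, with a ratio of 0.355 (0.240 to 0.506), and YLR162W, with 0.286 (0.121 to 0.575). YLR154C-G was at 0.623 (0.526 to 0.733) and TAR1 at 0.581 (0.429 to 0.773), close to the 0.552 (0.487 to 0.623) of RDN25 and short of 2-fold. RRT15 was at 0.263 (0.00640 to 1.61). Relative to 25S, 1 of 5 frames, RRT15, was called lower by reads and none higher, a call that was hardly possible for YLR154C-G. On that scale 39.1% of named features were lower and 46.0% higher by sense reads, and 67.7% of protein-coding features lower and 27.3% higher by antisense reads. Features without a Bud22 read, 159 of 494 by sense and 66 of 99 by antisense, could again only be called lower. RRT15 is itself among the antisense features called lower, so that share is no independent comparison for it. By entries relative to 25S, 0 of 5 frames were called either way, against 0.804% of named features lower and 28.4% higher.

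**Figure D2:**
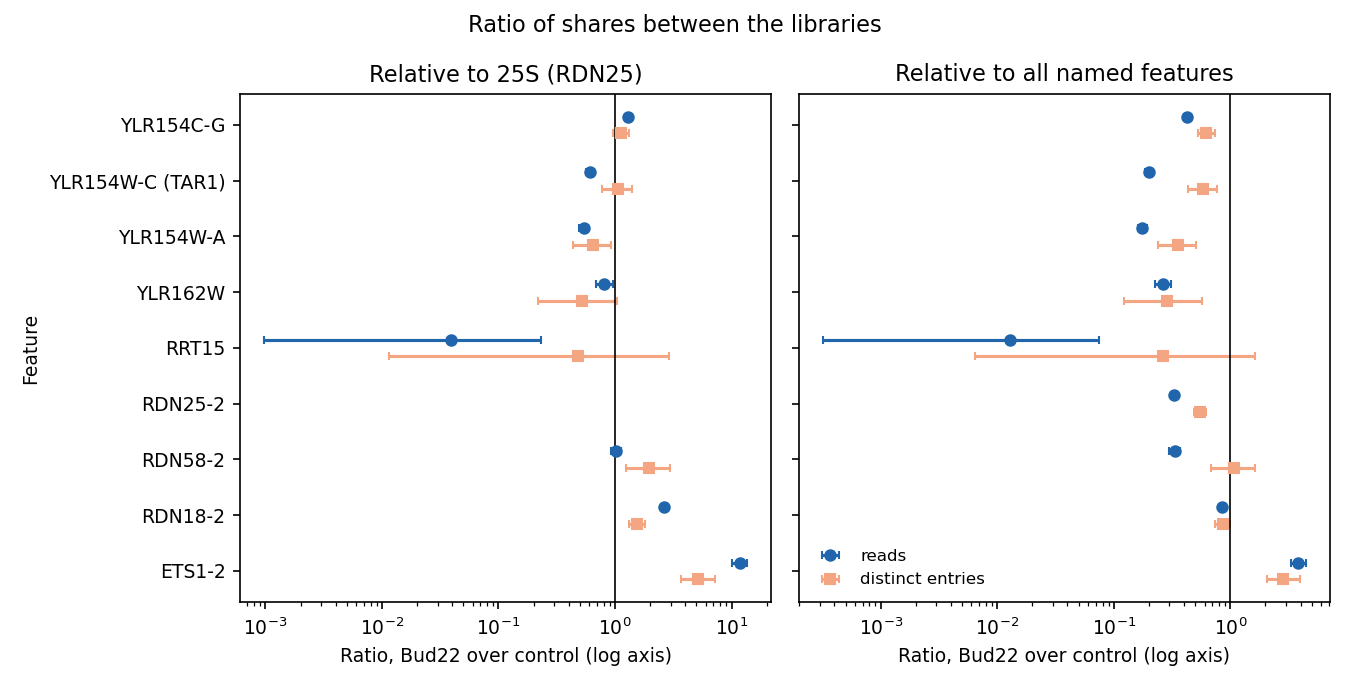
Ratio of shares, Bud22 over control, on a log axis, relative to 25S (left) and to all named features (right), by reads and by distinct entries, with exact 95% intervals (1 library per group). Relative to 25S the ratio of YLR154C-G is 1.29 by reads and 1.13 by entries, while the 5′ external transcribed spacer ETS1 stands at 11.7 and 5.17.

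Other regions of the precursor did not all go in 1 direction relative to 25S. Relative to 25S, the mature 18S sequence (RDN18) had a ratio of 2.62 (2.52 to 2.73) by reads and 1.56 (1.33 to 1.81) by entries. ETS1, the spacer removed from the precursor ahead of 18S, had 11.7 (10.1 to 13.6) and 5.17 (3.70 to 7.14). RDN58, the short rRNA of the large subunit, had 1.02 (0.918 to 1.13) by reads, and by entries 1.95 (1.23 to 2.96). The internal spacer ITS1 had 3.05 (2.20 to 4.25) by reads and 1.35 (0.347 to 3.78) on 4 entries against 34. The copy ITS2-2 was lower by reads, at 0.367 (0.246 to 0.532), and higher by entries, at 3.68 (1.53 to 8.02) on 9 against 28. The copy ITS2-1, for which no ratio was taken, had 25 reads against 171 and fewer entries, 6 against 26. No frame reached the ratio of 18S or ETS1 in either count. A frame within 25S is part of the 25S count, so its ratio has a ceiling set by its control share. The 18S and ETS1 regions have no such ceiling. At 42.7% of the control count by reads, YLR154C-G could not have reached 2.62, so for such frames this comparison was partly fixed in advance. Within 25S, the range of ratios over YLR154C-G, TAR1 and YLR154W-A was 0.540 to 1.29 by reads and 0.643 to 1.13 by entries.

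Copies per entry differed between the libraries at every frame. With Bud22 there were 21.5 reads per entry at YLR154C-G, 18.5 at TAR1, 20.3 at YLR154W-A and 26.9 at YLR162W. In the control the values were 3.09, 5.24, 3.99 and 2.82. RRT15 had 1 read on 1 entry with Bud22 and 2.00 reads per entry in the control. For the 4 frames with more than 1 entry, all Bud22 values lay above all control values. RDN25, RDN18, RDN58 and ETS1 were also higher with Bud22 than in the control, whereas the internal spacer copy ITS2-2 had 3.78 with Bud22 and 6.25 in the control. Over all named features the tables list 6282 entries with Bud22 and 39684 in the control.

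**Figure D3:**
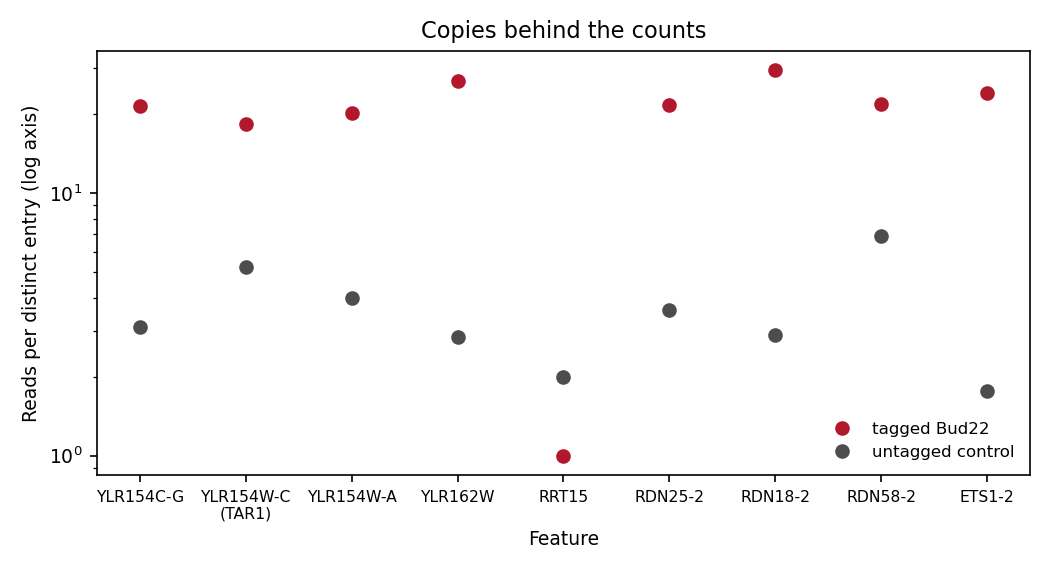
Reads per distinct entry (log axis) at each frame and at 4 rRNA regions, 1 point per library. The Bud22 points lie above the control points at all features shown except RRT15, which had 1 read on 1 entry with Bud22.

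The frames made up a large part of what the tables list as protein-coding. YLR154C-G held 50.0% of the sense reads of that class with Bud22 (48.8 to 51.2), while YLR154C-G with the 4 TAR1 reads held 35.2% in the control (34.4 to 36.0). Of antisense reads at protein-coding features, the 4 Watson frames held 1827 of 10659 with Bud22, which is 17.1% (16.4 to 17.9), and in the control 5786 of 9914, or 58.4% (57.4 to 59.3). YNL017C, a feature outside the rDNA, held 6710 and 1557 of those reads. Without it, an alternative chosen after seeing the data, the frames held 46.3% (44.7 to 47.8) of 3949 and 69.2% (68.2 to 70.2) of 8357. With both strands together the 5 frames held 30.0% with Bud22 and 44.7% in the control. By entries these shares were 35.2% (31.7 to 38.8) and 34.9% (33.9 to 36.0), with intervals that overlap. Without the frames, 3442 sense reads were left to the class with Bud22 and 9253 in the control.

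By antisense reads, not scaled by length, TAR1 ranked 1 of all protein-coding features in the control and 2 with Bud22, YLR154W-A 2 and 3, YLR162W 4 and 6, and RRT15 10 and 40. Outside the rDNA, 14 features had more antisense reads over both libraries than RRT15, and the 5 with the highest control counts are described. YNL017C, with 6710 antisense reads against 1557, ranked first with Bud22, and its ratio over all named features was 2.65 (2.51 to 2.80). YPR159C-A (419 against 308) had 0.837 (0.721 to 0.973) and YGR164W (213 against 82) had 1.60 (1.23 to 2.09). In the R64 table these 2 overlap a tRNA gene, a class of abundant stable RNA. YAL037C-B (0 against 99) and YGR050C (0 against 80) had reads only in the control. A choice by control count favours features low with Bud22, so these 5 do not represent all 14. The ratios of the 4 Watson frames ranged from 0.0128 to 0.265. Of the 99 protein-coding features with at least 10 antisense reads over both libraries, 21 were called higher with Bud22 over the named-feature total and 70 lower. With Bud22, 66 of the 99 had no antisense read. Those 66 passed the minimum through the control alone, so they do not show whether the frames were low for such features.

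**Figure D4:**
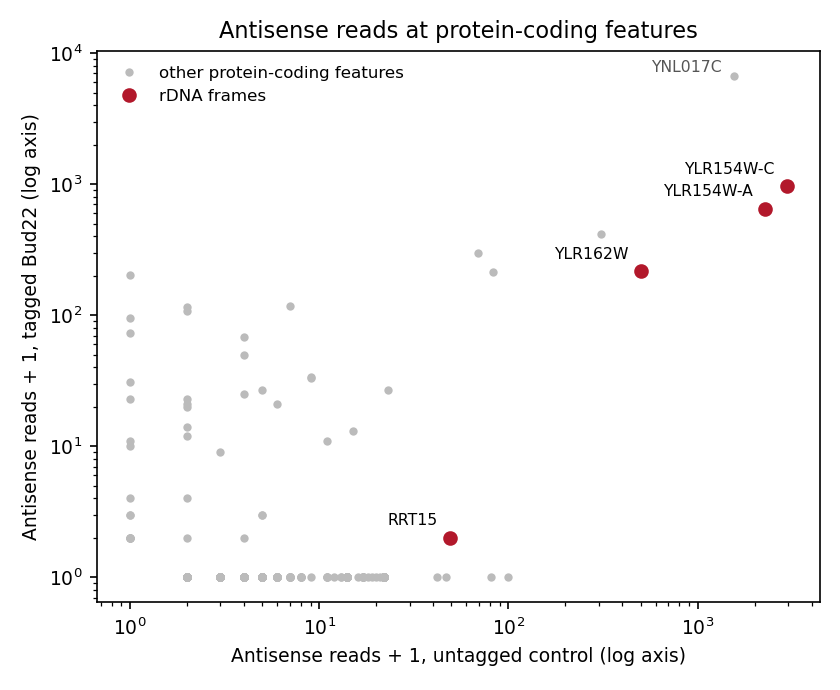
Antisense reads at each protein-coding feature with any, in the control (horizontal) and with Bud22 (vertical), both as reads + 1 on log axes. TAR1 (shown as YLR154W-C) and YLR154W-A have the most antisense reads in the control, 2963 and 2275, while YNL017C has the most with Bud22, 6710.

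The genes around the frames had few reads. The R64 table places 21 protein-coding genes from RNH203, a ribonuclease H2 subunit gene, to MAS1, and 17 of them are not among the frames. Of these 17, 7 gave a row. The 4 copies of ASP3, the gene of cell-wall asparaginase, had 5 sense reads each in the control and 0 with Bud22. Whether the 4 copies list the same reads cannot be seen in the tables. MAS1 had 11 sense reads in the control and 0 with Bud22. The Ty1 reading frames YLR157C-B and YLR157C-A had 57 and 0 sense reads with Bud22 and 84 and 5 in the control. The 57 reads rested on 1 entry.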

How the data were processed

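RNA recovered by CRAC was measured in 1 library of tagged Bud22 and 1 of untagged W303. The authors deposited raw read counts for each annotated feature, which pyReadCounters (Counters version 1.2.1) produced from alignments with the ending novo, per the file headers. For trimming, duplicate removal, the aligner, its settings, genome build and annotation the answer is the same: not given in the sources used here. Hence no coordinates, lengths or densities are printed, and counts or ranks of different features set side by side are not scaled by length. Repeat copies have equal or nearly equal counts, which is read here as a read being counted at every copy and feature it overlaps. The third column, headed number of reads, was read as distinct entries because in 0 rows was it above both strand counts added together. The definition of an entry is unknown. No deposited row lacked reads, so the files list only features with a count.

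The members, lists and tests were chosen with earlier results of these data known. The 25S-strand count is sense for YLR154C-G and antisense for the 4 Watson frames. It was divided by the RDN25 sense count, or by sense counts of all named features (intergenic rows, which name no gene, were left out). Shares have exact Clopper-Pearson 95% intervals, ratios exact conditional binomial intervals and pairs conditional odds ratios (Python 3.11.15, SciPy 1.17.1). A call needed 10 counts, 2-fold and an interval excluding 1, and was tested on simulated data. The simulated reads were independent, so that test does not cover copies of 1 molecule. The features named were all members, the rRNA regions, the genes the R64 table places around the rDNA, and at most 5 other protein-coding features with more antisense reads than the least counted member. Precision is limited by 287 entries at 25S with Bud22.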

Additional observations from a re-analysis of the deposited data

How the results depend on the processing

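The choice of total and of reads or entries moved most values. The ratio of YLR154C-G relative to 25S (1.29) was 1.13 by distinct entries, 1.41 over the sum of the frames, and 1.66 as odds against the rest of 25S, an alternative chosen after seeing the data. It turned below 1 over RDN37 (0.858) and over RDN18 (0.493), where the total itself holds more 18S reads with Bud22. Frames called lower relative to 25S numbered 1, against 0 by entries, 3 over RDN37, 5 over RDN18 and 2 as odds. Over named features the YLR154C-G ratio (0.422) was 0.623 by entries, 0.354 over mapped reads, 0.266 with the total without rRNA, 0.877 without tRNA and 0.806 with the median ratio set to 1. The 5 frames called lower became 2 by entries and 3 each at 4-fold, without tRNA and after setting the median ratio to 1. The frames' share of the protein-coding class (30.0% and 44.7% by reads) was 35.2% and 34.9% by entries, and the odds ratios by entries were 1.07 for YLR154C-G over TAR1, 1.76 over YLR154W-A and 0.610 for YLR154W-A over TAR1. Without YNL017C, also chosen after seeing the data, the frames' share of protein-coding antisense reads (17.1% and 58.4%) was 46.3% with Bud22 and 69.2% in the control. The other alternatives (both strands together, pseudocounts of 0.5 and 1, a 99% interval, no minimum or 30 counts, the other RDN25 copy) left these values within the interval first given, and left the counts of frames called within 1.5 times. No paired analysis was possible because each group holds 1 library. The 1 read of RRT15 with Bud22 and the 8 entries of YLR162W limit what can be said of these frames.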

Other observations

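Intergenic rows were left out above. The one with the most antisense reads in the control held 17216 of them, the same number as the sense reads of RDN37 there, and 13753 with Bud22 against 13752 at RDN37. The tables do not show whether these are the same reads.

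The antisense reads of RDN37 in the control numbered 16. They divide into 6 at RDN18, 4 at ITS1, 2 at ITS2 and 4 at RDN25, and the Bud22 library had none at any of these regions. The control's opposite-strand share was 0.0929% of reads (0.0531 to 0.151). With Bud22 a count of 0 allows up to 0.0218% of the 13752 reads, but up to 0.538% of the 558 entries behind them, so a lower share was not detectable by entries.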
